A study of Mus musculus with 27 samples.

Results

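The early activation response of wild-type (WT) CD8 T cells was read from 6 of the 27 RNA-seq libraries of the series. All libraries of the WT naive group and of the WT group activated for 12 h were taken, 3 on each side, and no library was chosen by its values. Every gene that passed a filter on low values was tested, while the genes named below were in part picked by their values. Of the 35275 genes in the tables, 20965 had at least 1 read in these 6 libraries and 12454 passed the filter on low values and were tested. The series as a whole asks how the let-7 microRNA family shapes CD8 T cell differentiation, with WT, lin28Tg and let-7Tg cells sampled as naive cells, after 12 h of activation and as day 5 cytotoxic T lymphocytes (CTLs). The naive group was labelled WT P14+, 0 h, with no treatment. The activated group was labelled WT P14+, 12 h, and was stimulated with anti-CD3 at 2 µg/mL and anti-CD28 at 5 µg/mL, with doxycycline at 2 µg/mL in the culture medium. P14+ cells carry a transgenic T cell receptor that recognizes a peptide of the lymphocytic choriomeningitis virus, and the study's methods place transgenic P14+ lines on a Rag2-/- background, which lacks B cells and T cells with other receptors. That statement is made for the P14+lin28Tg and P14+let-7Tg mice. For crosses to a reporter line, the methods list WT P14+ mice beside them on that background. Whether the WT donors of these libraries shared it is not stated in the sources used here. Mice of both sexes aged 6 to 10 weeks were used, and per the methods the mice, controls included, drank doxycycline beforehand unless stated otherwise. The source label reads lymph nodes and the cell type label T cells. No step that purified the cells is given in the sources used here. The 12 h group differs from the naive group in receptor stimulation, hours in culture and doxycycline in the medium together, and their parts cannot be told apart.

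A naive CD8 T cell is small, divides rarely and moves between blood and lymph nodes. It is held in this state by transcription factors such as KLF2, TCF7 and FOXO1. When its receptor and CD28 are engaged, calcium, MAP kinase and NF-κB signals switch on early genes, then the transcription factors MYC and IRF4. The cell makes cytokines, takes up nutrients, builds ribosomes and enters the cell cycle, and its first division usually follows about a day later. A sample at 12 h therefore falls after the first wave of early genes and before most cells divide.

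Expression is given in each of the 3 libraries of a group, in replicate order, as fragments per kilobase of gene, divided by the number of mapped fragments (FPKM), as deposited. FPKM is per gene length, so levels can be set beside each other between most genes. For very short gene segments a few reads give a high FPKM. Fold changes are 12 h over naive, fitted on log2(scaled FPKM + 0.5) after the libraries were scaled to each other, and stand in brackets after the FPKM values as log2 fold change ± standard error (SE). The added 0.5 FPKM makes the fitted change of weakly expressed genes smaller than the change of their FPKM. Scaling lowered naive values relative to 12 h values, so a gene with equal FPKM in both groups has a log2 fold change slightly above 0. A gene was called higher or lower where the limma test with Benjamini-Hochberg adjustment over all 12454 genes gave an adjusted p under 0.05.

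The libraries held 14102906 to 16761360 counted reads and 15812 to 18367 genes with a read. Their identity was first checked against marker genes. The 7 T cell markers were at high levels in all 6 libraries. Cd8a, a chain of the CD8 coreceptor, was at 525, 523 and 509 FPKM against 173, 121 and 139.7 FPKM and Trac, the constant region of the T cell receptor alpha chain, at 1402, 1704 and 1671 FPKM against 1167, 1316 and 1131 FPKM, naive against 12 h. The summed T cell markers were 5172 to 5756 FPKM in naive libraries and 2352 to 2472 FPKM at 12 h, and 6 of the 7 were called lower. Trac, the other, was called lower without scaling, with the upper quartile (-0.40 in both) and without naive replicate 1 (-0.26). Markers of other lineages summed to less in every library, but not to 0. Defining B cell genes (Ms4a1, Pax5) stayed under 1 FPKM in every library, while Ighm was at 394, 421 and 427 FPKM against 104, 86.5 and 104 FPKM and Cd79b at 17.1, 17.1 and 19.6 FPKM against 1.46, 1.23 and 1.02 FPKM. Class II and dendritic cell markers summed to 385 to 665 FPKM in naive libraries and 48.6 to 114 FPKM at 12 h, monocyte and macrophage markers to 93.5 to 409 FPKM in naive libraries and 13.5 to 26.7 FPKM at 12 h, erythroid markers to 153 to 292 FPKM in naive libraries and 26.5 to 104 FPKM at 12 h, and NK cell markers to 76.2 to 148 FPKM in naive libraries and 36.3 to 53.6 FPKM at 12 h. Markers of neutrophils and mast cells summed to 8.89 to 14.9 FPKM in naive libraries and 1.93 to 2.59 FPKM at 12 h and those of stromal and endothelial cells to 65.3 to 65.5 FPKM in naive libraries and 5.56 to 11 FPKM at 12 h. Most of the stromal and endothelial sum was Pecam1 (62.4, 63.7 and 63.2 FPKM against 5.94, 10.6 and 4.92 FPKM), and most of the B cell sum was Ighm. Markers under 1 FPKM in all 6 libraries were 4 of 9 for B cells, 2 of 10 for monocytes and macrophages, 1 of 10 for dendritic cells, 5 of 8 for neutrophils and mast cells, 3 of 8 for erythroid cells, 7 of 9 for stromal and endothelial cells and 0 of 8 for NK cells. Pax5 and Pdgfra were at 0 in all 6. Every one of these sums was lower at 12 h, and in these bulk libraries fewer cells of a type and less RNA per cell cannot be told apart. CD4 T cell markers summed to 20.1 to 36.8 FPKM in naive libraries and 70.9 to 86.8 FPKM at 12 h, and of that sum at 12 h most was Tnfsf8 (83.2, 62.7 and 72.7 FPKM), a TNF family ligand, with Cd4 itself at 0.378, 0.636 and 1.12 FPKM.

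**Figure D1:**
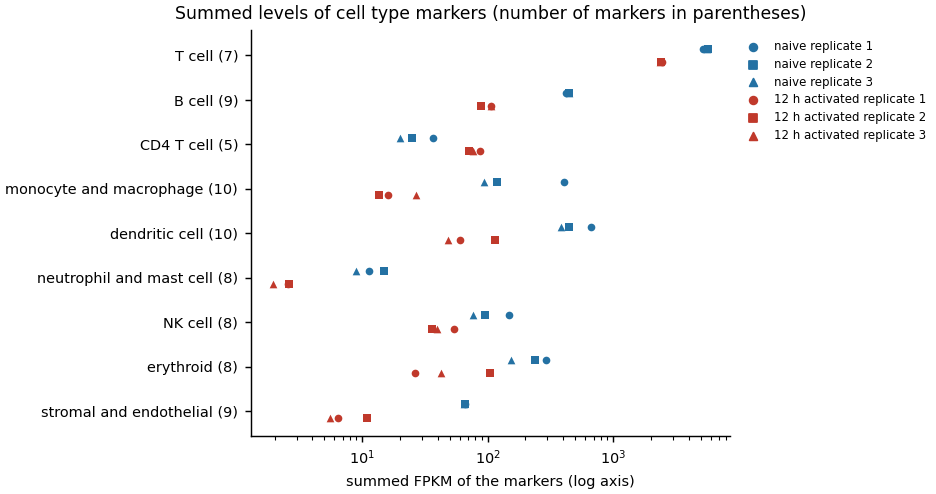
Summed FPKM of each list of cell type markers (log10 axis) in the 3 naive and the 3 12 h libraries, with each library as a point. T cell markers lie between 2352 and 5756 FPKM, and the sums of every other lineage but CD4 T cells are lower at 12 h.

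Among the naive libraries, replicate 1 had the most genes with a read and the highest sums of monocyte, dendritic cell, NK cell and erythroid markers. Its Ly6c2, found on monocytes and on memory-like CD8 T cells, was at 350.0, 75.1 and 58.3 FPKM across the 3 naive libraries (log2 fold change -3.33, -2.54 without naive replicate 1 and -2.64 without activated replicate 2). It made up most of the monocyte and macrophage sum of that library. The class II chaperone Cd74 was at 243, 164 and 141 FPKM in the naive libraries. Among the activated libraries, replicate 2 stood apart. It kept more S1pr1, Klf2 and Il7r and had more Ccl3, Ccl4 and Xcl1 and less Gzmb than the other activated libraries. Where leaving out 1 of these libraries moved a named change by over 1.5 times or ended its call, the value without it is given beside the result.

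Between naive and activated cells 5000 genes were called higher (40.1% of those tested) and 4873 lower (39.1%), so that 79.3% changed in one direction or the other. Before adjustment, 5075 genes were higher and 4947 lower with a p under 0.05. The median size of a called change was 2.00-fold, and 2396 genes were at least 2-fold higher (19.2%) and 2555 at least 2-fold lower (20.5%). At 8-fold, 174 genes were higher and 308 lower, while at 32-fold 36 were higher and 26 lower. The 3 libraries of each group did not overlap for 5179 genes that were higher at 12 h (41.6%) and 5022 that were lower (40.3%). A count of members of a gene group is therefore set beside these shares, since any group of genes taken from this comparison would hold many called members. The tested genes had a median log2 fold change of 0.01, with an interquartile range of -0.80 to 0.77. Without scaling between libraries that median was -0.19, and 4170 genes were called higher and 5746 lower. The split therefore leans downward on the deposited scale (42.1% of called genes higher) and is even after scaling (50.6%), and most rises of under about 0.2 on the log2 scale turn into falls without scaling, while small falls become larger.

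**Figure D2:**
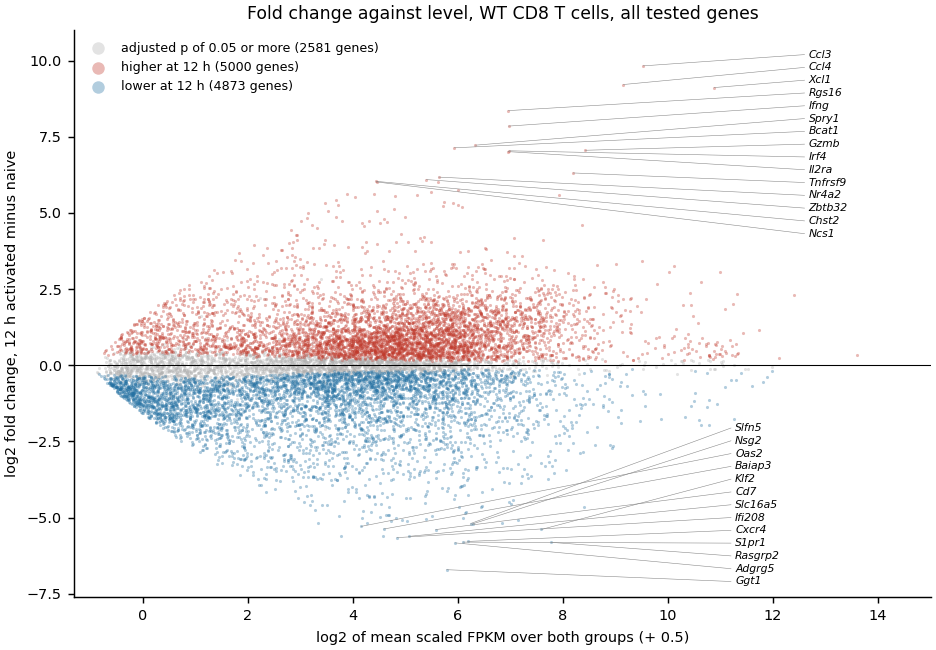
Log2 fold change (12 h minus naive) of the 12454 tested genes against their mean level in log2(FPKM + 0.5), with genes called higher, lower and not called in separate colors. Called genes spread on both sides of 0 at every level, and the widest changes lie between -6.71 (Ggt1) and 9.83 (Ccl3).

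The 15 genes with the largest rises, among those that reached a mean of 10 scaled FPKM, were led by secreted mediators. Ccl3, a chemokine that draws T cells and myeloid cells (chr11:83647844-83649355, GRCm38), was at 3.31, 0.462 and 0.554 FPKM in naive cells and 996, 2219 and 896 FPKM at 12 h (log2 fold change 9.83 ± 0.54, limma adjusted p = 1.2e-06). Its neighbor Ccl4 was at 3.56, 1.07 and 0.536 FPKM in naive cells and 773, 1666 and 725 FPKM at 12 h (9.22 ± 0.50). Xcl1, the ligand of XCR1 on cross-presenting dendritic cells, was at 15.2, 5.69 and 2.71 FPKM in naive cells and 2156, 5429 and 2892 FPKM at 12 h (9.12 ± 0.55). All 3 chemokines were highest in activated replicate 2, and without that library their log2 fold changes were 9.43, 8.85 and 8.75. Ifng, the gene for interferon-γ, was at 1.89, 0.469 and 0.0586 FPKM in naive cells and 227, 294 and 169 FPKM at 12 h (7.85 ± 0.46). In naive cells replicate 1 had the highest value of each of these mediators, and without it the log2 fold changes of Ccl3 and Xcl1 were 10.44 and 9.72.

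The cytotoxic protease Gzmb was at 11.3, 4.00 and 2.05 FPKM in naive cells and 811, 344 and 729.8 FPKM at 12 h (7.06 ± 0.55), lowest in replicate 2 of the activated libraries and highest in replicate 1 of the naive ones, without which the log2 fold change was 7.65. Il2ra, the high-affinity chain of the IL-2 receptor, was at 2.18, 0.961 and 1.57 FPKM in naive cells and 247, 204 and 228 FPKM at 12 h (7.02 ± 0.20). Irf4, whose product scales with receptor signal strength, was at 1.80, 1.31 and 1.47 FPKM in naive cells and 237, 223 and 233 FPKM at 12 h (7.04 ± 0.10). The activated libraries lay close together for Il2ra and Irf4, with no overlap with naive cells. Tnfrsf9, the costimulatory receptor 4-1BB, was at 8.98, 7.07 and 6.14 FPKM in naive cells and 505, 619 and 483 FPKM at 12 h (6.31 ± 0.14). Nr4a2, an orphan nuclear receptor induced by calcium signals, was at 1.05, 0.77 and 0.708 FPKM in naive cells and 62.6, 141 and 68.4 FPKM at 12 h (6.18 ± 0.28). Dampers of signaling rose with them. Rgs16, which shortens G protein signaling downstream of chemokine receptors, was at 0.488, 0.242 and 0.0908 FPKM in naive cells and 179, 309 and 202 FPKM at 12 h (8.36 ± 0.23). Spry1, an inhibitor of the Ras to MAP kinase pathway, was at 1.26, 0.221 and 0.551 FPKM in naive cells and 134, 186 and 125 FPKM at 12 h (7.23 ± 0.30). Bcat1, the cytosolic branched-chain aminotransferase, was at 0.389, 0.316 and 0.474 FPKM in naive cells and 108, 114 and 113 FPKM at 12 h (7.14 ± 0.10), the largest rise of a metabolic enzyme among these 15. The others were Zbtb32, a zinc finger repressor (6.10), Chst2, a sulfotransferase (6.04), and Ncs1, a calcium sensor (6.02).

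The 15 genes with the largest falls came from other kinds of function. Ggt1, the gamma-glutamyltransferase that breaks down extracellular glutathione (chr10:75561604-75586200), was at 138, 111 and 105 FPKM in naive cells and 0.489, 0.891 and 0.22 FPKM at 12 h (log2 fold change -6.71 ± 0.24, limma adjusted p = 1.4e-07), the largest drop of a tested gene at this level. Receptors and signal carriers of the resting, migrating cell fell with it. S1pr1, the receptor that lets lymphocytes leave lymph nodes, was at 146, 145 and 142 FPKM in naive cells and 0.702, 7.11 and 0.758 FPKM at 12 h (-5.81 ± 0.64). Cxcr4, the receptor for CXCL12, was at 113, 150.3 and 199 FPKM in naive cells and 1.31, 4.19 and 1.08 FPKM at 12 h (-5.78 ± 0.40). Rasgrp2, the exchange factor that activates Rap1 for integrin adhesion, was at 404, 451 and 542 FPKM in naive cells and 5.10, 11 and 4.94 FPKM at 12 h (-5.81 ± 0.27). Klf2, the transcription factor that drives S1pr1, was at 351, 379 and 486 FPKM in naive cells and 5.11, 19.9 and 4.35 FPKM at 12 h (-5.39 ± 0.48). In each of these, activated replicate 2 had the highest value at 12 h, and without it the log2 fold changes were -6.70, -6.28, -6.16 and -6.04.

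Adgrg5, an adhesion G protein-coupled receptor, was at 147, 118 and 127 FPKM in naive cells and 1.22, 2.22 and 1.20 FPKM at 12 h (-5.83 ± 0.18). Cd7, an immunoglobulin family surface receptor, was at 83.5, 107 and 109.5 FPKM in naive cells and 1.17, 4.47 and 0.567 FPKM at 12 h (-5.40 ± 0.49, and -6.04 without activated replicate 2). Slc16a5, a member of the monocarboxylate transporter family, was at 74.9, 69.6 and 66.7 FPKM in naive cells and 0.761, 0.8 and 0.741 FPKM at 12 h (-5.62 ± 0.0913). The 12 h levels of these 3 genes lay between 0.567 and 4.47 FPKM, all below their naive levels. Interferon-related genes made up 3 of the 15, namely Oas2 (-5.29), Slfn5 (-5.20) and Ifi208 (-5.66), and Baiap3 (-5.38) and Nsg2 (-5.21), both linked to vesicle traffic, were among the rest. The remaining pair had 1 read each over the activated libraries. Gm11695, an antisense transcript, had 509 naive reads against 1, a ratio of 459 (exact 95% interval 82.1 to 18181). Ighd1-1, an immunoglobulin D segment, had 50 against 1, a ratio of 45.1 (exact 95% interval 7.74 to 1818). These intervals cover counting error only. The 50 naive reads of Ighd1-1 gave a mean of 49.3 FPKM, and the 509 of Gm11695 a mean of 28.5 FPKM. Libraries are not stated to keep strand, so reads of an antisense gene and its partner cannot be told apart.

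**Figure D3:**
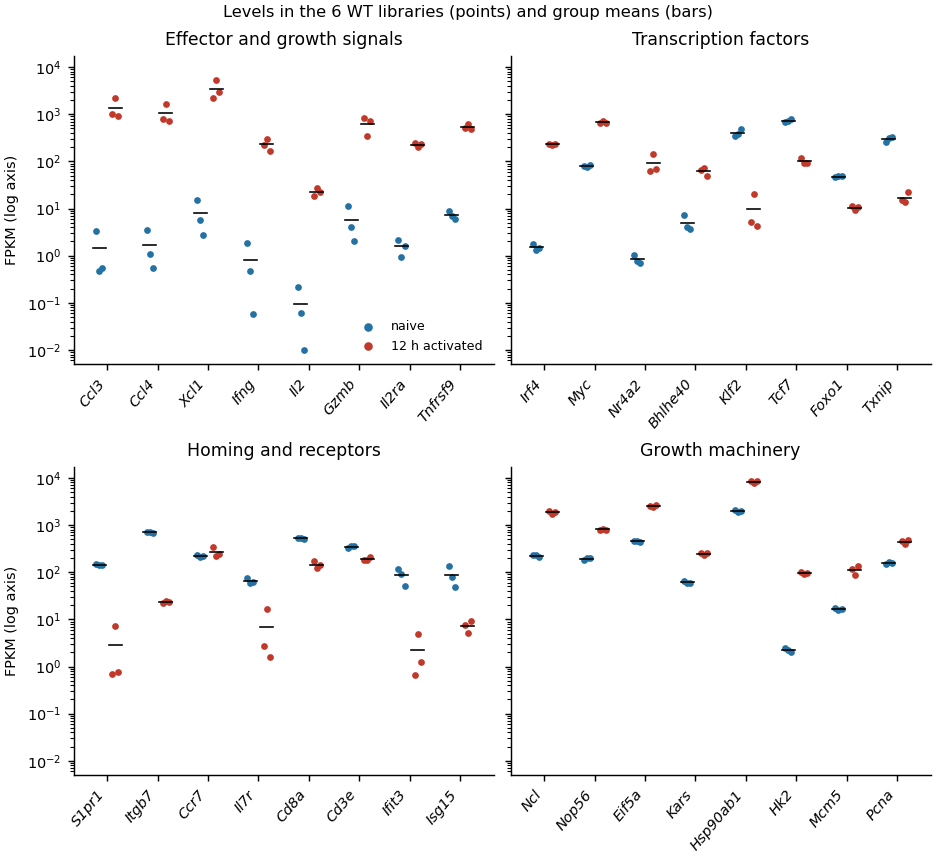
FPKM of chosen genes in each of the 6 libraries (log10 axis, points for libraries and bars for group means, the 0 of Il2 drawn at 0.01 FPKM), in 4 panels by kind of gene. Naive and 12 h points do not overlap for any gene plotted except Ccr7.

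Most transcription factors of activation rose and most of those of the naive state fell. Of the activation factors, 29 of 41 tested members were called higher (70.7%) and 6 lower (14.6%), with a median log2 fold change of 1.36 (all tested genes: 40.1%, 39.1% and 0.01). Myc, which drives growth and metabolism (chr15:61985391-61990374), was at 79.7, 77.3 and 82.7 FPKM in naive cells and 647, 702 and 667 FPKM at 12 h (3.29 ± 0.0507, limma adjusted p = 2.5e-08). Nfkb1, which encodes the p105 and p50 NF-κB subunit, was at 94.7, 87.1 and 85.3 FPKM in naive cells and 483, 659 and 489 FPKM at 12 h (2.82 ± 0.11). Fosl1, an AP-1 subunit, was at 1.30, 0.996 and 1.45 FPKM in naive cells and 35.6, 55 and 37.2 FPKM at 12 h (4.80 ± 0.18). Rel was at 10.2, 9.26 and 10.1 FPKM in naive cells and 48.7, 72.5 and 52.9 FPKM at 12 h and Bhlhe40, which supports cytokine production, at 7.22, 3.97 and 3.76 FPKM in naive cells and 64.8, 73.5 and 47.9 FPKM at 12 h. Tbx21, the gene for the effector factor T-bet, was at 12.1, 6.55 and 4.89 FPKM in naive cells and 28.4, 25.9 and 22.3 FPKM at 12 h (1.95 ± 0.28), and in naive cells it was highest in replicate 1. The 6 factors that were called lower included Runx3 (-1.56), the CD8 lineage factor, Tox (-1.40), which is needed for T cell exhaustion, Notch1 (-0.82) and the AP-1 partner Batf3 (-0.76). Batf, its relative, was at 25.4, 32.4 and 31.2 FPKM in naive cells and 21.7, 14.4 and 20 FPKM at 12 h (-0.44 ± 0.17), called lower. That call was lost with the replicate block, with no filter, in the fit of 18 naive and 12 h libraries, without naive replicate 2 (-0.37) or 3 (-0.40) and without activated replicate 2 (-0.26). Prdm1, the gene for the terminal differentiation factor BLIMP1, was under 1 FPKM in all 6 libraries.

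Of the quiescence and naive state factors, 4 of 34 tested members were called higher (11.8%) and 27 lower (79.4%). Their median log2 fold change was -1.70 (all tested genes: 40.1%, 39.1% and 0.01). Tcf7, the factor that sustains naive and memory T cells, was at 675, 727 and 786 FPKM in naive cells and 118, 92.1 and 93.8 FPKM at 12 h (-2.62 ± 0.11), and its partner Lef1 at 135, 134 and 134 FPKM in naive cells and 25.5, 25.7 and 26.5 FPKM at 12 h (-2.12 ± 0.0517). Foxo1, which keeps homing and survival genes on, was at 46, 47.9 and 49.3 FPKM in naive cells and 11.3, 9.24 and 10.6 FPKM at 12 h (-1.93 ± 0.0937). All 3 genes fell in every activated library with little spread. Txnip, an inhibitor of glucose uptake, was at 252, 308 and 329 FPKM in naive cells and 15.3, 13.7 and 22.1 FPKM at 12 h (-3.88 ± 0.18). Ddit4, an inhibitor of the growth kinase complex mTORC1, was at 183, 234 and 362 FPKM in naive cells and 10.7, 6.51 and 10.5 FPKM at 12 h (-4.49 ± 0.27). The 4 members called higher were Bach2 at 29, 30.8 and 29 FPKM in naive cells and 87.1, 90.2 and 80.6 FPKM at 12 h (1.75 ± 0.0603), a repressor of effector genes, Foxp1 (1.19), Slfn2 (1.07) and Tob2 (0.65). The naive program was therefore lower for most of its genes while these 4 moved the other way.

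Cytokine genes rose and most receptor genes fell. Of 37 listed cytokines, chemokines and TNF ligands, 27 were tested. Of those, 18 were called higher (66.7%) and 6 lower (22.2%), with a median log2 fold change of 2.18 (all tested genes: 40.1%, 39.1% and 0.01). Members with few naive reads, such as Il2 and Il3, passed the filter only through their 12 h reads, which favors a call of higher. Il2, the T cell growth factor, was at 0.222, 0.0619 and 0 FPKM in naive cells and 18.6, 27.2 and 22.3 FPKM at 12 h (5.41 ± 0.18), with 5 reads in all in naive cells. Tnf was at 11.1, 13.1 and 11 FPKM in naive cells and 71.7, 138 and 57.2 FPKM at 12 h (3.00 ± 0.28). Lta, its neighbor, was at 10.5, 11.1 and 12 FPKM in naive cells and 91.1, 133 and 83.4 FPKM at 12 h (3.33 ± 0.15). Lif was at 1.07, 0.233 and 0.0517 FPKM in naive cells and 39.9, 42.3 and 31.5 FPKM at 12 h (5.63 ± 0.34). Il3 had 1 naive read against 465 at 12 h, a ratio of 515 (exact 95% interval 92 to 20392). That interval covers counting error only, and the 12 h libraries spread widely (15.4 ± 10.65 FPKM, mean ± SD, n = 3). For Tnf, Lta and Il3 activated replicate 2 was the highest library, as it was for the chemokines. Without it 18 members of the list were still called higher. The members called lower included Il16 (-3.40), Ltb at 573, 669 and 662 FPKM in naive cells and 61.6, 112 and 59.1 FPKM at 12 h (-2.86), the surface partner of lymphotoxin, Tnfsf10 (-2.51), which encodes TRAIL, and Ccl5 at 109, 71.5 and 61.3 FPKM in naive cells and 19.7, 33.2 and 9.99 FPKM at 12 h (-1.81).

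Of cytokine receptors, 5 of 27 tested members were called higher (18.5%) and 20 lower (74.1%). Their median log2 fold change was -1.38 (all tested genes: 40.1%, 39.1% and 0.01). Beside Il2ra, those called higher were Il12rb2 at 3.29, 3.67 and 3.94 FPKM in naive cells and 33.7, 21.1 and 17.7 FPKM at 12 h (2.74 ± 0.22), Il12rb1 at 12.6, 8.63 and 8.03 FPKM in naive cells and 37.9, 39.1 and 37.2 FPKM at 12 h (2.16 ± 0.15), which together form the IL-12 receptor, Il15ra (1.40) and Il2rb, at 111, 101 and 108 FPKM in naive cells and 126, 109 and 109 FPKM at 12 h (0.33 ± 0.076). The gain of Il2rb was small, its deposited FPKM values overlapped, and its call was lost without scaling and with the upper quartile (0.10 in both). Il7r, the receptor for the survival cytokine IL-7, was at 73.7, 58.3 and 61.2 FPKM in naive cells and 2.67, 16.6 and 1.59 FPKM at 12 h (-3.53 ± 0.68), and without activated replicate 2 its log2 fold change was -4.44, and without replicate 3 it was -2.94. Il18r1 (-4.31) and Il18rap (-2.42), the IL-18 receptor chains, and Ifngr2 (-2.48) fell as well. Il4ra, the IL-4 receptor alpha chain, was at 67.5, 62 and 68.5 FPKM in naive cells and 38.1, 35.1 and 39.3 FPKM at 12 h (-0.58 ± 0.0731). The shared gamma chain Il2rg, at 272, 260.5 and 268 FPKM in naive cells and 204, 223 and 223 FPKM at 12 h, was not called (-0.07 ± 0.0537, limma adjusted p = 0.26), but was called lower without scaling and with the upper quartile (-0.30 in both). Downstream of these receptors Stat5a and Stat5b, close paralogs, went in opposite directions, with Stat5a at 47.8, 45.3 and 45.9 FPKM in naive cells and 105, 119 and 102 FPKM at 12 h (1.44 ± 0.0631). Stat5b was at 62.3, 66.9 and 71.5 FPKM in naive cells and 33.6, 34.1 and 35.2 FPKM at 12 h (-0.72 ± 0.0679). Jak3, the kinase of the gamma chain, fell from 114 ± 7.48 FPKM to 47.3 ± 3.77 FPKM (mean ± SD, n = 3) with a log2 fold change of -1.04 ± 0.0821.

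Homing genes and the receptor apparatus itself were mostly lower. Of homing and adhesion genes, 7 of 28 tested members were called higher (25%) and 18 lower (64.3%). Their median log2 fold change was -0.99 (all tested genes: 40.1%, 39.1% and 0.01). Itgb7, an integrin chain used for entry into gut tissue, was at 708, 712 and 683 FPKM in naive cells and 22.1, 24.6 and 23.6 FPKM at 12 h (-4.65 ± 0.0536). Ccr7, a chemokine receptor of lymph node entry, went against most of the list. It was at 236, 214 and 216 FPKM in naive cells and 340.4, 216 and 237 FPKM at 12 h (0.45 ± 0.16, limma adjusted p = 0.029), and this call was lost without scaling (0.23), with the upper quartile (0.22), with no filter (0.48), in the fits of all 9 WT libraries (0.45) and of 18 libraries (0.41), and without naive replicate 2 (0.43) or 3 (0.43). Cd44, a marker of experienced cells, was at 12.4, 7.51 and 7.53 FPKM in naive cells and 60.2, 72 and 71.4 FPKM at 12 h (3.08 ± 0.19), and Itgav (1.30) and Itgb1 (0.81) rose less.

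Of the T cell receptor complex and its proximal signaling, 6 of 34 tested members were called higher (17.6%) and 27 lower (79.4%). Their median log2 fold change was -0.94 (all tested genes: 40.1%, 39.1% and 0.01). Cd8b1 was at 907, 946 and 905 FPKM in naive cells and 151, 109.6 and 114 FPKM at 12 h (-2.66 ± 0.12). Cd3e, a signaling chain of the receptor complex, was at 330.0, 359 and 351 FPKM in naive cells and 185, 183 and 208 FPKM at 12 h (-0.62 ± 0.0717). The kinase Lck was at 878, 918 and 939 FPKM in naive cells and 384, 399 and 399 FPKM at 12 h (-0.98 ± 0.0526). Sit1, an adaptor that restrains receptor signals, was at 78.4, 86 and 90.5 FPKM in naive cells and 3.53, 2.91 and 3.36 FPKM at 12 h (-4.29 ± 0.10). Among those named the falls ranged from 1.54-fold for Cd3e to 19.6-fold for Sit1. Signaling genes called higher included Lcp2, the adaptor SLP-76 (1.28), Fyn, a Src family kinase (0.93), Sh2d2a (1.39) and Malt1 (0.84), which carries receptor signals to NF-κB.

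Surface receptors that tune the response were counted next. Of costimulatory and early surface receptors, 14 of 30 tested members were called higher (46.7%) and 12 lower (40%), with a median log2 fold change of 0.26. The shares of all tested genes were 40.1% and 39.1%, and the median of the list was -0.0028 without naive replicate 3. Cd69, the early activation marker, was at 73, 57.3 and 60.7 FPKM in naive cells and 166, 167 and 169 FPKM at 12 h (1.62 ± 0.0879). Cd28 itself was at 40, 47 and 45.9 FPKM in naive cells and 143, 95.2 and 126 FPKM at 12 h (1.66 ± 0.15). Icos was at 18.8, 19.8 and 16.9 FPKM in naive cells and 48.8, 32.4 and 42.1 FPKM at 12 h (1.34 ± 0.15). Tfrc, the transferrin receptor, was at 49.6, 41.3 and 45.3 FPKM in naive cells and 277, 325 and 307 FPKM at 12 h (2.95 ± 0.0818), and Slamf1 rose from 3.98 ± 0.021 FPKM to 71 ± 13.2 FPKM (mean ± SD, n = 3) with a log2 fold change of 4.20 ± 0.12. Cd2 (-2.30) and Tnfrsf25 (-2.30) were called lower, and so was Cd27, at 511, 594 and 626 FPKM in naive cells and 357, 394 and 377 FPKM at 12 h (-0.38).

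Of inhibitory receptors, 10 of 20 tested members were called higher (50%) and 7 lower (35%), against 40.1% and 39.1% of all tested genes. Their median log2 fold change was 0.59 (0.39 without activated replicate 2). Pdcd1, the gene for PD-1, was at 0.888, 1.32 and 1.76 FPKM in naive cells and 66.7, 104 and 72.8 FPKM at 12 h (5.68 ± 0.21, limma adjusted p = 1.8e-07). Lag3 was at 6.22, 1.69 and 1.46 FPKM in naive cells and 125, 80.9 and 115 FPKM at 12 h (5.31 ± 0.44), Tigit at 1.32, 0.221 and 0.808 FPKM in naive cells and 56.8, 39.1 and 53.9 FPKM at 12 h (5.55 ± 0.31). Ctla4 was at 0.353, 0.525 and 0.262 FPKM in naive cells and 38.8, 7.91 and 26.1 FPKM at 12 h (4.72 ± 0.51). All 4 rose by at least 26.4-fold on the fitted scale, and Ctla4 was lowest in replicate 2 of the activated libraries, without which its log2 fold change was 5.39. Havcr2, the gene for TIM-3, was at 0.459, 0.162 and 0.216 FPKM in naive cells and 0.432, 1.30 and 0.17 FPKM at 12 h and was not called (0.53 ± 0.35). It passed the threshold without activated replicate 3 (0.85). Without activated replicate 2, its highest library, the log2 fold change was 0.12. Cd96 (-2.74), Lair1 (-2.47) and Klrd1 (-1.38), whose products also restrain killing, were called lower. Of genes for negative feedback of signaling, 19 of 40 tested members were called higher (47.5%) and 13 lower (32.5%), near the shares of all tested genes. Their median log2 fold change was 0.19, a median that turned to -0.04 without scaling. Rgs1 (5.26) and Dusp4 (5.14), a MAP kinase phosphatase, rose beside Rgs16 and Spry1. Dgka, the diacylglycerol kinase that limits Ras activation, was at 399.8, 411 and 440.1 FPKM in naive cells and 39.3, 38.1 and 39.2 FPKM at 12 h (-3.18 ± 0.0564). Socs3 was at 114, 95.2 and 90.8 FPKM in naive cells and 15.7, 15.6 and 10.8 FPKM at 12 h (-2.58 ± 0.15).

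Cytotoxic granule genes were called higher at about the share of all tested genes. Of these, 7 of 17 tested members were called higher (41.2%) and 4 lower (23.5%), with a median log2 fold change of 0.13, against 40.1% and 39.1% of all tested genes. Next to Gzmb, the rises included Serpinb9 at 16.3, 9.44 and 7.35 FPKM in naive cells and 127, 135 and 115 FPKM at 12 h (3.75 ± 0.24), an inhibitor of granzyme B, its relative Serpinb6b (3.46) and the granule proteoglycan Srgn at 244, 227 and 205 FPKM in naive cells and 675, 799 and 675 FPKM at 12 h (1.90 ± 0.0852). Gzma was at 51.5, 35.4 and 20.7 FPKM in naive cells and 4.36, 3.40 and 3.27 FPKM at 12 h (-2.82 ± 0.30), and the lysosomal protease Ctsd at 327, 309 and 309 FPKM in naive cells and 51.1, 40 and 48.7 FPKM at 12 h (-2.52 ± 0.10). Gzmc was at 13.4, 8.64 and 5.61 FPKM in naive cells and 15, 14.8 and 7.58 FPKM at 12 h and was not called (0.65 ± 0.34, limma adjusted p = 0.11). It passed the threshold without naive replicate 1 (0.95), without activated replicate 3 (0.95) and with the replicate block (0.65, limma adjusted p = 0.0047). Granzymes thus moved in different directions, and the naive values of Gzma, Gzmb and Gzmc were highest in replicate 1.

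Genes for making ribosomes rose without exception among those tested. Of ribosome biogenesis genes, 77 of 77 tested members were called higher (100.0%) and 0 lower (0%). Their median log2 fold change was 1.97 (all tested genes: 40.1%, 39.1% and 0.01), and the lowest rise was 0.83. No member was called lower by limma, by limma-voom on the reads or at an unadjusted p under 0.05. Ncl, the gene for nucleolin, was at 232, 230.2 and 207 FPKM in naive cells and 1945, 1717 and 1868 FPKM at 12 h (3.27 ± 0.0763, limma adjusted p = 4.2e-08). Npm1, which encodes the nucleolar protein nucleophosmin, was at 483, 476 and 446 FPKM in naive cells and 3541, 3088 and 3501 FPKM at 12 h (3.08 ± 0.0792). Nop56, a core protein of the box C/D particles that guide rRNA methylation, was at 178, 196 and 202 FPKM in naive cells and 802, 835 and 803 FPKM at 12 h (2.31 ± 0.0594). Taken as a share of counted reads (mean ± SD, n = 3), the list held 0.738% ± 0.007 of the reads of naive libraries and 3.06% ± 0.0461 at 12 h.

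The E-box CACGTG, a site type bound by MYC and related factors, was searched on both strands in RefSeq promoter windows of 300 bases (250 before and 50 after the annotated start, GRCm38.p6). It was present in 15 of the 68 ribosome biogenesis genes with a window (22.1%), against 10.5% of tested genes and 7.24% of all 27025 windows. The share was 13.6% of genes called at least 2-fold higher and 6.77% of those at least 2-fold lower. Other lists had similar or higher shares, with 8 of 37 translation factors (21.6%), 4 of 12 tRNA synthetases (33.3%) and 6 of 24 nucleotide synthesis genes (25%). Matches are letters in a window and not shown sites, and their part in the change was not tested. The 150 bases before the start are shown for 2 members, to show where the E-box sits in genes that rose, with the E-box in capitals. Nop2, an rRNA methyltransferase at 34.1, 37.9 and 37.9 FPKM in naive cells and 180.5, 198 and 187 FPKM at 12 h (2.58 ± 0.0626), lies on the plus strand (chr6:125131733-125131882). Nol11, a factor for rRNA transcription and processing at 23.2, 21 and 20.7 FPKM in naive cells and 75.2, 79.3 and 74 FPKM at 12 h (2.02 ± 0.064), lies on the minus strand (chr11:107189382-107189531).
Nop2: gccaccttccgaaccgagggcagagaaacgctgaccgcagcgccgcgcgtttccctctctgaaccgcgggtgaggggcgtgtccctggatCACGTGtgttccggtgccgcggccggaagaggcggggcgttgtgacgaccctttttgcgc
Nol11: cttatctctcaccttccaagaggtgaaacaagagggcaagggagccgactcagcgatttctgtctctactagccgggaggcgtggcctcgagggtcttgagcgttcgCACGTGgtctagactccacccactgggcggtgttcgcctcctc
The E-box begins 60 bases before the annotated start of Nop2 and 43 bases before that of Nol11.

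Other parts of protein synthesis rose by less. Of translation factors, 45 of 48 tested members were called higher (93.8%) and 1 lower (2.08%). Their median log2 fold change was 1.50 (all tested genes: 40.1%, 39.1% and 0.01). Eif5a, needed for elongation through difficult stretches, was at 462, 454 and 431 FPKM in naive cells and 2521, 2438 and 2663 FPKM at 12 h (2.73 ± 0.0647). Eif4e2, a cap-binding relative of eIF4E, was at 56.1, 56.7 and 58.5 FPKM in naive cells and 84.5, 87.6 and 85 FPKM at 12 h (0.81 ± 0.0488). The 1 member called lower was Pdcd4, an inhibitor of the helicase eIF4A, at 124, 131 and 134 FPKM in naive cells and 24.9, 17.1 and 22.1 FPKM at 12 h (-2.36 ± 0.13). All 20 cytosolic aminoacyl-tRNA synthetases that were tested were called higher, with a median of 1.73, and again no member was called lower by limma, limma-voom or at an unadjusted p under 0.05. Kars, the lysyl-tRNA synthetase, was at 66.3, 59.5 and 58.5 FPKM in naive cells and 250.3, 237 and 251 FPKM at 12 h (2.22 ± 0.0661), and the smallest change in the list was 0.59.

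Ribosomal protein genes themselves, which were already among the most abundant mRNAs of naive cells, changed by less. Of the cytosolic ones, 57 of 81 tested members were called higher (70.4%) and 5 lower (6.17%), but without scaling 40 were called higher and 16 lower. Their median log2 fold change was 0.37 (all tested genes: 40.1%, 39.1% and 0.01). Their share of the reads was 9.81% ± 0.338 of the reads of naive libraries and 10.6% ± 0.226 at 12 h. Rps2 was at 2206, 2330.2 and 2319.8 FPKM in naive cells and 4265, 4291 and 4386 FPKM at 12 h (1.15 ± 0.0657) while Rps27 was at 420.0, 376 and 395 FPKM in naive cells and 212, 225 and 233 FPKM at 12 h (-0.60 ± 0.0623). Rps27l, its paralog and a target of p53, was at 74.6, 76.5 and 65.7 FPKM in naive cells and 365, 323 and 357 FPKM at 12 h (2.49 ± 0.0818). Many processed copies of ribosomal protein genes share their sequence, and reads that match several copies could be lost or misplaced, which could shift single members. Of mitochondrial ribosomal proteins, 73 of 76 tested members were called higher (96.1%) and 1 lower (1.32%), with a median log2 fold change of 1.32. Mrps6 was at 12, 11 and 9.97 FPKM in naive cells and 72.3, 66.5 and 71.1 FPKM at 12 h (2.84 ± 0.0864). Mrpl12 was at 14.1, 18.4 and 14.4 FPKM in naive cells and 64.1, 57.1 and 65.9 FPKM at 12 h (2.19 ± 0.12). The mitochondrial set thus rose more widely than the cytosolic set in counts, and the difference between the sets was not tested.

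**Figure D4:**
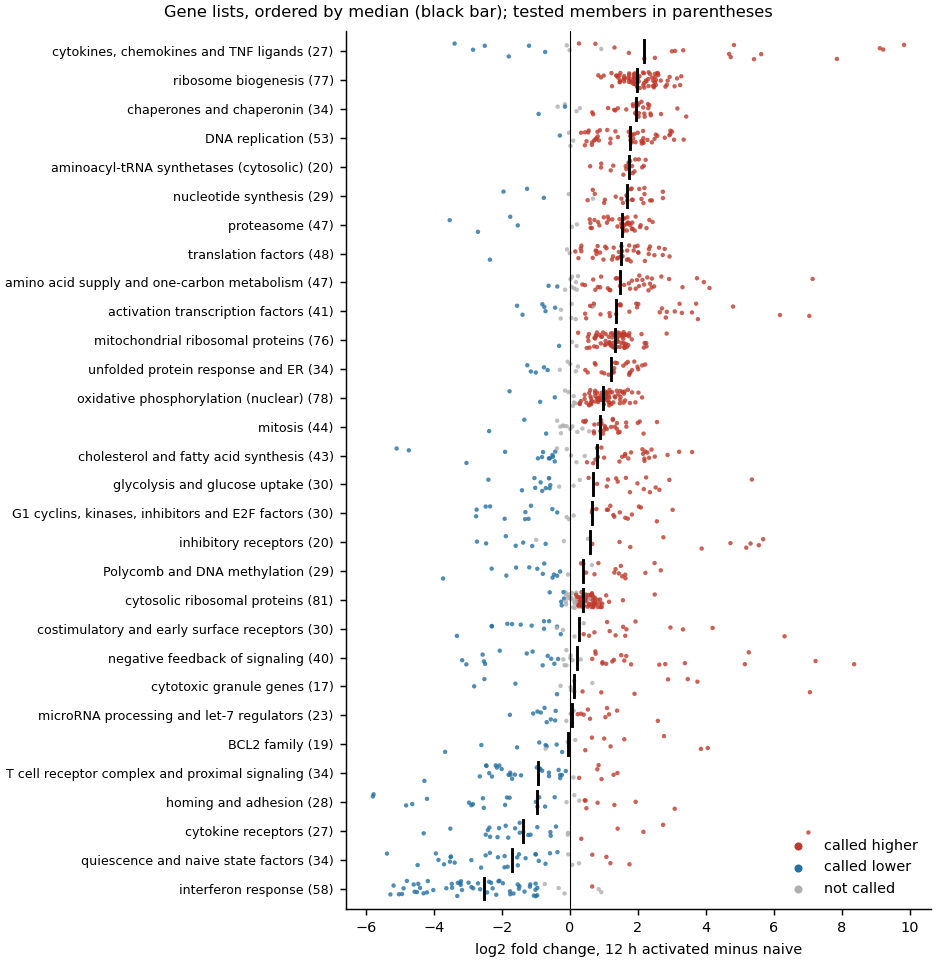
Log2 fold change of every tested member of the 30 gene lists, with each member as a point and the list median as a bar. Ribosome biogenesis and tRNA synthetase genes lie above 0 without exception, interferon response genes lie below 0 but for a few, and the median over all tested genes is 0.01.

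Genes for folding and turnover of proteins rose together with the machinery that makes them. Of chaperones and chaperonin subunits, 28 of 34 tested members were called higher (82.4%) and 2 lower (5.88%). Their median log2 fold change was 1.94 (all tested genes: 40.1%, 39.1% and 0.01). Hspd1, the mitochondrial chaperonin HSP60, was at 133, 136 and 131 FPKM in naive cells and 1297, 1074 and 1302 FPKM at 12 h (3.42 ± 0.0886). Hsp90ab1, a cytosolic HSP90, was at 2059, 1923 and 1938 FPKM in naive cells and 8618, 7716 and 8586 FPKM at 12 h (2.30 ± 0.0826). Chaperones took 0.807% ± 0.00691 of the reads of naive libraries and 2.79% ± 0.195 at 12 h. Of genes of the unfolded protein response and endoplasmic reticulum, 24 of 34 tested members were called higher (70.6%) and 5 lower (14.7%), with a median log2 fold change of 1.21, with the lumenal chaperone Hspa5 at 268, 248 and 213 FPKM in naive cells and 951, 939 and 979 FPKM at 12 h (2.21 ± 0.0853). The stress sensor Eif2ak3, the kinase PERK, was lower (-1.26).

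Of proteasome genes, 41 of 47 tested members were called higher (87.2%) and 4 lower (8.51%). Their median log2 fold change was 1.53 (all tested genes: 40.1%, 39.1% and 0.01). Psmd1, a subunit of the regulatory particle, was at 40.9, 39.5 and 39 FPKM in naive cells and 191, 183 and 179.8 FPKM at 12 h (2.43 ± 0.0524), and the core subunit Psma1 at 91.7, 85.5 and 78.8 FPKM in naive cells and 217, 211 and 222 FPKM at 12 h (1.57 ± 0.0674). The 4 members called lower were Psme2b (-3.54) and the catalytic subunits of the immunoproteasome, Psmb8, Psmb9 and Psmb10. Psmb10 was at 176, 152 and 133 FPKM in naive cells and 20.4, 20.8 and 17.4 FPKM at 12 h (-2.71 ± 0.11) and Psmb9 at 152, 114 and 101 FPKM in naive cells and 30.6, 30.5 and 29 FPKM at 12 h (-1.76 ± 0.13). Psmb8 was at 149, 116 and 115 FPKM in naive cells and 40.9, 31.6 and 37.8 FPKM at 12 h (-1.54 ± 0.13). Within the list these interferon-inducible subunits went against the constitutive members. Psme2b shares most of its sequence with Psme2, which was not called (0.20) but was called higher without naive replicate 1 (0.30) or activated replicate 2 (0.27), so that the value of either is uncertain.

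Genes for nutrient supply and biosynthesis mostly rose. Of genes for amino acid supply and one-carbon metabolism, 37 of 47 tested members were called higher (78.7%) and 2 lower (4.26%). Their median log2 fold change was 1.47 (all tested genes: 40.1%, 39.1% and 0.01). Odc1, the first enzyme of polyamine synthesis, was at 25.6, 22.8 and 20.5 FPKM in naive cells and 344, 330.1 and 355 FPKM at 12 h (4.10 ± 0.0847). Slc1a5, a glutamine transporter, was at 259, 275 and 294 FPKM in naive cells and 734, 935 and 837 FPKM at 12 h (1.82 ± 0.0891). Asns, the asparagine synthetase, had 1 naive read against 327 at 12 h, a ratio of 362 (exact 95% interval 64.6 to 14353, counting error only). Slc16a10, an aromatic amino acid transporter, was at 9.62, 8.69 and 9.66 FPKM in naive cells and 23.5, 20.6 and 23.7 FPKM at 12 h (1.45 ± 0.10). Ddit3, a stress factor of the same response as Asns, was called lower (-0.38), a call lost without naive replicate 2 (-0.35) or 3 (-0.30) or activated replicate 3 (-0.31). Of nucleotide synthesis genes, 24 of 29 tested members were called higher (82.8%) and 3 lower (10.3%), with a median log2 fold change of 1.67. Ctps, the CTP synthase used by dividing lymphocytes, was at 24.8, 22 and 21.6 FPKM in naive cells and 128, 141 and 127 FPKM at 12 h (2.73 ± 0.0706), whereas its paralog Ctps2 was at 49.3, 54.6 and 55.4 FPKM in naive cells and 11.4, 11 and 11.4 FPKM at 12 h (-1.96 ± 0.0734). Cad, which begins pyrimidine synthesis, was at 67.1, 66.7 and 73.1 FPKM in naive cells and 313, 298 and 299 FPKM at 12 h (2.36 ± 0.0579), and salvage kinase Dck was lower (-0.77).

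Of glycolysis and glucose uptake genes, 16 of 30 tested members were called higher (53.3%) and 10 lower (33.3%), with a median log2 fold change of 0.67 (all tested genes: 40.1%, 39.1% and 0.01). Hk2, the inducible hexokinase, was at 2.46, 2.26 and 1.99 FPKM in naive cells and 99.3, 93.2 and 95.4 FPKM at 12 h (5.35 ± 0.0899, limma adjusted p = 3.1e-08). Ldha, which makes lactate, was at 517, 559 and 544 FPKM in naive cells and 1937, 1546 and 2009.9 FPKM at 12 h (1.98 ± 0.11). Gapdh was at 918, 863 and 911 FPKM in naive cells and 3959.7, 3413 and 4391 FPKM at 12 h (2.35 ± 0.10). The glucose transporters parted, with Slc2a1 at 42.6, 39.7 and 46.8 FPKM in naive cells and 81.3, 75.5 and 83.1 FPKM at 12 h (1.12 ± 0.079). Slc2a3 was at 38.2, 46.1 and 43.7 FPKM in naive cells and 19.5, 25.2 and 21.5 FPKM at 12 h (-0.71 ± 0.11). Pdk1 (-1.42) and Pdk2 (-2.41), kinases that inhibit pyruvate dehydrogenase, were called lower. Of nuclear genes of oxidative phosphorylation, 69 of 78 tested members were called higher (88.5%) and 3 lower (3.85%), with a median log2 fold change of 0.97. The ATP synthase subunit Atp5b was at 741, 798 and 748 FPKM in naive cells and 2061, 1833 and 2047 FPKM at 12 h (1.61 ± 0.075), and the list took 0.678% ± 0.0204 of the reads of naive libraries and 1.15% ± 0.0581 at 12 h. Cox7a2l, a factor for assembly of respiratory supercomplexes, was at 230.0, 244 and 228 FPKM in naive cells and 54.3, 61.8 and 57.2 FPKM at 12 h (-1.78 ± 0.0592), and transcripts of the mitochondrial genome took 1.61% ± 0.0349 of the reads of naive libraries and 1.28% ± 0.0514 at 12 h. The share of reads of the nuclear list was thus higher at 12 h and that of mitochondrial transcripts lower.

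Of genes for cholesterol and fatty acid synthesis, 25 of 43 tested members were called higher (58.1%) and 13 lower (30.2%), with a median log2 fold change of 0.79 (all tested genes: 40.1%, 39.1% and 0.01). Idi1, an isomerase of the sterol and isoprenoid pathway, was at 22.3, 21.9 and 19.9 FPKM in naive cells and 242, 168 and 279 FPKM at 12 h (3.59 ± 0.18). Activated replicate 2 had its lowest value at 12 h, and the groups did not overlap. The exporters moved the other way, with Abcg1 at 67, 64.9 and 72.2 FPKM in naive cells and 1.12, 2.90 and 0.462 FPKM at 12 h (-5.11 ± 0.39). Abca1 was at 23.9, 19.9 and 15.7 FPKM in naive cells and 0.141, 0.368 and 0.0578 FPKM at 12 h (-4.75 ± 0.22). Acss2 (-3.05) and Scd2 (-1.91), enzymes of fatty acid synthesis, were called lower, while Fasn, the fatty acid synthase, was at 84.8, 87.6 and 98.6 FPKM in naive cells and 342, 332 and 353 FPKM at 12 h (2.15 ± 0.0698).

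Cell cycle genes are given by phase. Of G1 cyclins, kinases, inhibitors and E2F factors, 16 of 30 tested members were called higher (53.3%) and 11 lower (36.7%), with a median log2 fold change of 0.65 (all tested genes: 40.1%, 39.1% and 0.01). Cdk4 was at 112, 114 and 114 FPKM in naive cells and 354, 318 and 357 FPKM at 12 h (1.82 ± 0.066). E2f1 was at 1.53, 1.16 and 1.73 FPKM in naive cells and 9.54, 7.22 and 12.6 FPKM at 12 h (2.55 ± 0.22). Inhibitors of the cycle fell, with Cdkn1b, which encodes p27, at 49.7, 49.1 and 48.2 FPKM in naive cells and 6.25, 8.93 and 6.37 FPKM at 12 h (-2.49 ± 0.12). Rbl2, which encodes the pocket protein p130, was at 77.3, 73.3 and 75.5 FPKM in naive cells and 11.4, 13.8 and 11.5 FPKM at 12 h (-2.35 ± 0.0778). Of the D cyclins, Ccnd2 was at 116, 99.6 and 91.3 FPKM in naive cells and 150.5, 123 and 135 FPKM at 12 h (0.64 ± 0.11). Ccnd3 was at 169, 166 and 174 FPKM in naive cells and 60.2, 53.1 and 60.6 FPKM at 12 h (-1.32 ± 0.0712). Of DNA replication genes, 49 of 53 tested members were called higher (92.5%) and 1 lower (1.89%), with a median log2 fold change of 1.78. Mcm5, a subunit of the replicative helicase, was at 17.6, 16.1 and 16.6 FPKM in naive cells and 117, 85.9 and 138 FPKM at 12 h (2.92 ± 0.16), Pcna, the sliding clamp, at 149, 165 and 159 FPKM in naive cells and 461, 391 and 488 FPKM at 12 h (1.73 ± 0.10). Cdc34, a ubiquitin-conjugating enzyme that helps cells leave G1, was at 48.3, 51.5 and 52.6 FPKM in naive cells and 133, 134 and 136 FPKM at 12 h (1.62 ± 0.0548). Activated replicate 2 was the lowest of its group for Mcm5 and Pcna, and the list took 0.209% ± 0.00259 of the reads of naive libraries and 0.506% ± 0.0846 at 12 h.

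Mitotic genes were at low levels in both groups. Of these, 30 of 44 tested members were called higher (68.2%) and 3 lower (6.82%). Their median log2 fold change was 0.89 (all tested genes: 40.1%, 39.1% and 0.01). Their reads made up only 0.0326% ± 0.00132 of the reads of naive libraries and 0.0444% ± 0.00461 at 12 h. Cdk1 was at 0.879, 0.841 and 0.42 FPKM in naive cells and 4.84, 5.02 and 7.77 FPKM at 12 h (2.56 ± 0.23). Ccnb1, its cyclin, was at 1.09, 0.563 and 0.375 FPKM in naive cells and 2.58, 2.13 and 1.82 FPKM at 12 h (1.38 ± 0.23). Plk1 at 1.56, 1.96 and 1.22 FPKM in naive cells and 0.805, 1.00 and 1.30 FPKM at 12 h (-0.27 ± 0.19) and the proliferation marker Mki67 at 1.43, 0.794 and 0.738 FPKM in naive cells and 0.556, 1.20 and 0.785 FPKM at 12 h (0.00 ± 0.23) were not called and overlapped between the groups. At day 5, in the WT CTLs of the same series, Mki67 was at 133 to 159 FPKM and Cdk1 at 133 to 162 FPKM over the 3 libraries. Those cells were stimulated differently, with anti-CD3 and irradiated splenocytes and later IL-2, so the values stand side by side with no test.

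The E2F site TTTNGCGC, where N is any base, was in 10 of the 43 DNA replication genes with a promoter window (23.3%), against 2.55% of tested genes and 1.38% of all windows. It was also in 4 of 24 G1 cyclins, kinases, inhibitors and E2F factors (16.7%). As with the E-box, matches are not shown sites, and their part in the change was not tested. The windows of 2 members that rose are shown for 150 bases before the start, with matches in capitals. Orc1, a subunit of the origin recognition complex at 1.97, 1.07 and 1.21 FPKM in naive cells and 14, 8.03 and 15.9 FPKM at 12 h (2.95 ± 0.28), is on the plus strand (chr4:108579304-108579453). Mcm6, a helicase subunit at 49.3, 44.7 and 42.9 FPKM in naive cells and 189, 137 and 203 FPKM at 12 h (2.15 ± 0.15), is on the minus strand (chr1:128359706-128359855).
Orc1: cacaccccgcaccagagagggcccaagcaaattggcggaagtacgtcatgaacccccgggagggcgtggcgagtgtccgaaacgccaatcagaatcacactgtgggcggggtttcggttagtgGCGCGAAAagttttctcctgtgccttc
Mcm6: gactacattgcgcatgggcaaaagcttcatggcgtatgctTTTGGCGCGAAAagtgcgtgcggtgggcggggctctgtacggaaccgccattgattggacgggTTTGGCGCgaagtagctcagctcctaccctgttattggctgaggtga
Mcm6 holds 3 matches in 2 runs, and Orc1 holds 1 that begins 27 bases before the start.

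Interferon response genes were lower almost throughout. Of these, 1 of 58 tested members were called higher (1.72%) and 52 lower (89.7%), with a median log2 fold change of -2.55, against 39.1% of all tested genes lower. Ifit1, an RNA-binding antiviral protein, was at 79.6, 52.3 and 29.8 FPKM in naive cells and 0.934, 1.15 and 0.864 FPKM at 12 h (-4.90 ± 0.31, limma adjusted p = 2.6e-06). Irf7, which amplifies type I interferon production, was at 379.5, 248 and 191 FPKM in naive cells and 6.84, 14.2 and 10.3 FPKM at 12 h (-4.42 ± 0.30). Isg15, a ubiquitin-like modifier, was at 133, 79.3 and 48.5 FPKM in naive cells and 7.60, 5.21 and 9.02 FPKM at 12 h (-3.18 ± 0.35). The naive libraries were in the same order for each of these genes, replicate 1 highest and replicate 3 lowest. The summed class II and dendritic cell markers and the monocyte markers stood in that order too, and their part in the change was not tested. Without naive replicate 1 the median of the list was -2.23 and 52 members were called lower and 2 higher. Tap1, which loads peptides onto class I molecules, was at 204, 167 and 148 FPKM in naive cells and 71.2, 69.1 and 76.4 FPKM at 12 h (-1.01 ± 0.11). It kept more of its naive level than the antiviral effectors named above. The 1 member called higher was Gbp2, at 83.8, 56.3 and 37.8 FPKM in naive cells and 68, 90.3 and 70.5 FPKM at 12 h (0.65 ± 0.26). This call was lost without scaling (0.42), with the median of ratios (0.61), with the upper quartile (0.42), with no filter (0.67), without naive replicate 2 (0.65) or 3 (0.36) and without activated replicate 1 (0.72), 2 (0.53) or 3 (0.68). Cxcl10, at 8.61, 4.61 and 2.50 FPKM in naive cells and 4.11, 22.3 and 5.32 FPKM at 12 h, and Iigp1, at 4.40, 1.15 and 0.747 FPKM in naive cells and 2.90, 2.78 and 3.07 FPKM at 12 h, were not called. Iigp1 was called higher without naive replicate 1 (1.42), and Cxcl10 went from 0.92 to 0.21 without activated replicate 2. Ifng, the gene for the type II interferon, was by contrast among the largest rises.

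The core of the interferon-stimulated response element, GAAA and GAAA separated by any pair of bases, was in 25 of the 44 interferon response genes with a promoter window (56.8%), against 3.25% of tested genes and 3.49% of all windows. Since the list was made of interferon response genes, a high share was likely whatever their change. Cytotoxic granule genes (18.8%), cytosolic ribosomal proteins (13.3%) and proteasome genes (12.5%) were also above the background, while many lists had no match. These matches are not shown sites, and their part in the change was not tested. Windows of 150 bases before the start are given for 3 genes of the list that fell, with matches on either strand in capitals. Rsad2, the antiviral protein viperin, was at 38, 19.6 and 12.2 FPKM in naive cells and 0.355, 0.299 and 0.228 FPKM at 12 h (-4.60 ± 0.36). Ifit1 lies at chr19:34640739-34640888 on the plus strand, Rsad2 at chr12:26456453-26456602 and Isg15 at chr4:156200819-156200968 on the minus strand.
Ifit1: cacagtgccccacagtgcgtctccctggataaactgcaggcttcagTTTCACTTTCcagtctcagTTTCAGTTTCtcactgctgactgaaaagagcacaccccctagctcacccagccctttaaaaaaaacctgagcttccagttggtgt
Rsad2: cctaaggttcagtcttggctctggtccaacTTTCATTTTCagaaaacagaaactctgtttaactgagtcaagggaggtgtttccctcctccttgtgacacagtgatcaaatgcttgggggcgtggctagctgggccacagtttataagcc
Isg15: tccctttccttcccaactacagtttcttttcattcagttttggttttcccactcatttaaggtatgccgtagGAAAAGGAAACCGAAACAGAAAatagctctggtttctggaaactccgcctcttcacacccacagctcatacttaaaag
Isg15 holds 3 overlapping matches in 1 run. The sterol element TCACNCCAC was found in 1 of 32 cholesterol and fatty acid synthesis genes with a window (3.12%, Hmgcs1, at 14.5, 16.6 and 15.4 FPKM in naive cells and 67.9, 46.1 and 79.1 FPKM at 12 h), against 1.01% of tested genes and 1.22% of all windows, and the amino acid response element TGATGNAAT in 1 of 38 amino acid supply genes (2.63%) and 3 of 12 tRNA synthetase genes (25%), against 0.369% of tested genes and 0.969% of all windows.

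Genes of the BCL2 family decide on cell death and survival. Of the family, 8 of 19 tested members were called higher (42.1%) and 8 lower (42.1%), with a median log2 fold change of -0.07, close to the 40.1% and 39.1% of all tested genes. Bcl2l1, the gene for the survival protein Bcl-xL, was at 13.2, 11 and 12.7 FPKM in naive cells and 156, 168 and 149 FPKM at 12 h (3.85 ± 0.0791), and Bcl2 itself at 34.4, 23.5 and 23.5 FPKM in naive cells and 16.9, 11.3 and 13.2 FPKM at 12 h (-0.72 ± 0.19). Bcl2a1d, a copy of the A1 survival gene, was at 6.84, 4.27 and 3.94 FPKM in naive cells and 64.3, 105 and 65.5 FPKM at 12 h (4.05 ± 0.24). The near-identical copy Bcl2a1a was at 5.27, 2.94 and 2.07 FPKM in naive cells and 0.606, 1.09 and 0.311 FPKM at 12 h (-1.56). Reads that match several such copies may be lost or misplaced, so both values are uncertain. Among death-promoting members, Bmf was at 12.9, 20.8 and 18.2 FPKM in naive cells and 0.77, 0.863 and 0.508 FPKM at 12 h (-3.68 ± 0.20). Bbc3, which encodes PUMA, was at 63.5, 64.1 and 112 FPKM in naive cells and 7.76, 13.4 and 10.6 FPKM at 12 h (-2.61 ± 0.25). Bcl2l11, which encodes BIM, was at 30.5, 39.2 and 39.5 FPKM in naive cells and 62.6, 56.8 and 67.9 FPKM at 12 h (1.00 ± 0.12), and Bax rose (1.59).

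Genes that process microRNAs or control let-7, the family this series is about, were also listed. Of them, 10 of 23 tested members were called higher (43.5%) and 9 lower (39.1%), with a median log2 fold change of 0.05, near the 40.1% and 39.1% of all tested genes, and with a median that turned to -0.18 without scaling. Drosha, the nuclear enzyme that cuts primary microRNAs, was at 22.5, 23.4 and 25.1 FPKM in naive cells and 49.5, 40.7 and 45.8 FPKM at 12 h (1.15 ± 0.0919). Xpo5, which exports precursors, was at 18.3, 17.2 and 18.2 FPKM in naive cells and 40.5, 40 and 41.2 FPKM at 12 h (1.38 ± 0.0632). Dicer1 was at 15, 14.9 and 14.4 FPKM in naive cells and 12.9, 12.9 and 12.2 FPKM at 12 h and was not called (0.01 ± 0.0749). Both uridylyltransferases that act on let-7 precursors were called lower. Tut4 was at 89.9, 72 and 68.4 FPKM in naive cells and 39.7, 41.3 and 39.6 FPKM at 12 h (-0.69 ± 0.10), and Tut7 was at 26.3, 25.7 and 25.4 FPKM in naive cells and 12.1, 14.4 and 12.2 FPKM at 12 h (-0.75 ± 0.0825). The let-7 regulators Lin28a, Lin28b and Trim71 stayed under 0.1 FPKM in all 6 libraries and were not tested. The microRNAs themselves are not measured by these libraries.

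Of Polycomb and DNA methylation genes, 15 of 29 tested members were called higher (51.7%) and 12 lower (41.4%), with a median log2 fold change of 0.39 (all tested genes: 40.1%, 39.1% and 0.01). Ezh2, the histone methyltransferase of Polycomb complex PRC2, was at 17.5, 20.2 and 20.9 FPKM in naive cells and 90.7, 66.6 and 81.5 FPKM at 12 h (2.22 ± 0.13). Uhrf1, which guides maintenance of DNA methylation, was at 11, 10.1 and 11.1 FPKM in naive cells and 54.1, 39.3 and 71.8 FPKM at 12 h (2.49 ± 0.20). Cbx7 at 148, 143 and 165 FPKM in naive cells and 40.7, 48.5 and 39.2 FPKM at 12 h (-1.59 ± 0.0866), a reader of the mark that EZH2 makes, and Tet1 at 7.16, 9.43 and 9.36 FPKM in naive cells and 0.0659, 0.244 and 0.0712 FPKM at 12 h (-3.74 ± 0.17), which oxidizes methylcytosine, were called lower. Of the Notch pathway genes that the study names, Notch2 was at 12.3, 11.6 and 11.6 FPKM in naive cells and 11.6, 10.3 and 9.53 FPKM at 12 h and was not called (0.05 ± 0.10), and Rbpj, the factor through which Notch receptors act, was at 13, 11.2 and 10.7 FPKM in naive cells and 78.8, 97.8 and 85.3 FPKM at 12 h (3.08 ± 0.10).

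Of the 10 genes with the highest level per length in each group, Eef1a1, Rplp0, Rpl13a and Rplp1 were in both. Eef1a1, the elongation factor that brings tRNAs to the ribosome, led in both, at 11794, 12535 and 11606 FPKM in naive cells and 13161, 12406 and 12975 FPKM at 12 h (0.33 ± 0.0918). It was called higher, but 7 alternatives ended the call (0.10 to 0.36), among them no scaling, the replicate block (0.33) and leaving out naive replicate 1 (0.32) or activated replicate 1 (0.31). Found only in the naive set were Actb (5067, 5158 and 3697 FPKM), mt-Co1, Tpt1, Trbd1, a T cell receptor D segment, Rps14 and Rpl12. As for Ighd1-1, the FPKM of such a short segment cannot be set beside that of longer genes. Found only in the 12 h set were Hsp90ab1 (8618, 7716 and 8586 FPKM), Gapdh, Hspa8 (3825, 3123 and 3734 FPKM), Rps2, Rpl41 and Xcl1. The chemokine Xcl1 at 2156, 5429 and 2892 FPKM thus stood beside Actb (2919, 2598 and 2541 FPKM) in the same libraries. The 15 genes with the largest rises together took 0.00434% of reads in naive cells and 0.888% ± 0.191 (SD, n = 3) at 12 h, and the 15 with the largest falls 0.348% ± 0.0122 and 0.00614% ± 0.00452.

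**Figure D5:**
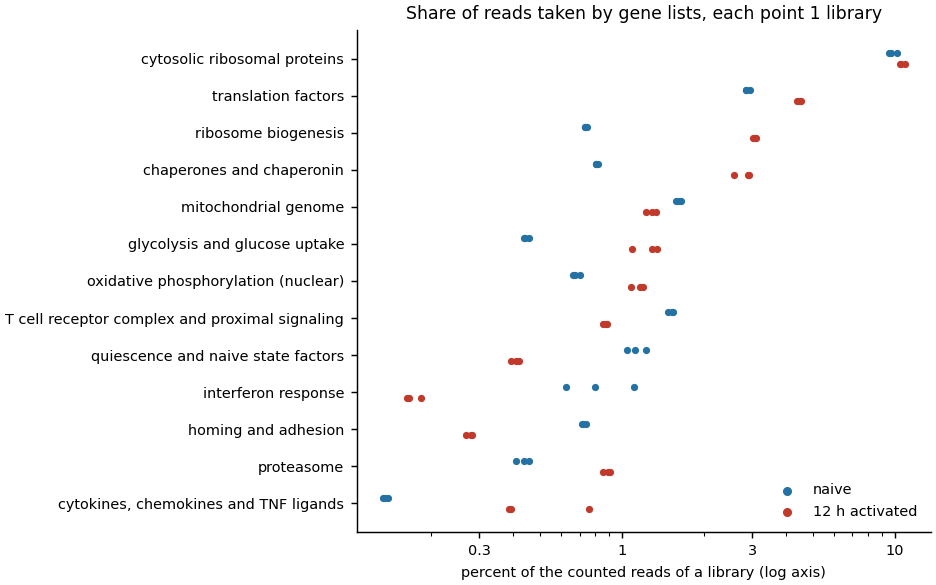
Share of counted reads (percent, log10 axis) held by each gene list in each of the 6 libraries. Ribosome biogenesis moves from 0.74% to 3.06% and interferon response from 0.84% to 0.17% in the means of 3 libraries, while cytosolic ribosomal proteins stay near 10% in both groups.

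Some genes passed from the floor to a clear signal or the reverse. Spin4, a histone reader, had 1 naive read against 1115 at 12 h, a ratio of 1235 (exact 95% interval 221 to 48836), and Dnph1, a nucleotide hydrolase, 2 against 1012, a ratio of 561 (exact 95% interval 155 to 4635). Fzd9, a Wnt receptor, and the prostaglandin synthase Ptgs2 had 0 naive reads against 266 and 107, which puts them at least 98.2-fold and at least 39.5-fold higher when 3 reads over the group are taken as the limit. These intervals and limits cover counting error only. In the other direction Ampd1, the AMP deaminase, had 1497 naive reads against 3, a ratio of 450.4 (exact 95% interval 154 to 2186), and Zfp683, a transcription factor of resident T cells, 331 against 2, a ratio of 149 (exact 95% interval 41 to 1239). Cd163 and Cd209a, which mark macrophages and dendritic cells, were also among those that were lost, with 227 reads against 3 and 86 against 0.

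Types of gene differed in direction. Of 11368 protein coding genes, 41.9% were higher and 38.3% lower, while of 743 long non-coding genes 19.5% were higher and 50.3% lower. Gene length was inferred from the steps of the FPKM values. Genes called at least 2-fold higher had a median inferred length of 1619 bases, those at least 2-fold lower 1814 and all tested genes 1862. Genes at least 2-fold higher moved from a median of 15.4 FPKM to 44.3 FPKM, and genes at least 2-fold lower from 15.3 FPKM to 2.51 FPKM.

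In the WT day 5 CTLs some of the same genes stood at other levels. Ccl3 was at 0.0693 to 0.283 FPKM, Xcl1 at 0 to 0.51 FPKM and Myc at 105 to 190.2 FPKM at day 5. Tcf7 was at 116 to 173 FPKM, S1pr1 at 10.4 to 18.9 FPKM and Il7r at 17 to 24.9 FPKM. Gzmb stood at 2142 to 2355 FPKM and Ifit1 at 0.32 to 0.96 FPKM. Ccl3, Xcl1 and Myc were thus higher at 12 h than in any naive or day 5 library, S1pr1 and Il7r lower than in any, and Gzmb lay between the other stages. These stages were deposited in separate tables and differ in stimulation, cytokines and time, and no test was made between them.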

How the data were processed

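The study used 3 samples of each group, called biological replicates in its figure legends. Cells were lysed, and a sequencing company extracted the RNA and made and read the libraries. Per the submitters' processing notes, reads were aligned to mm10 (GRCm38) with TopHat2 2.0.9 and Bowtie2 2.0.6, counted with HTSeq 0.6.1 and compared with DESeq2. The deposited values used here are FPKM per gene and library, made by the authors from read counts, gene length and library total, with no scaling between libraries. The tables also hold columns of the authors' own comparisons (fold changes and p-values), which were not used. The FPKM of naive and 12 h libraries stood in separate tables and were joined by gene ID.

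Whole reads were recovered from the FPKM steps: 100% of 462839 values above 0 were whole within 0.01 reads. Genes were tested where 10 reads at the median depth were reached in at least 3 of the 6 libraries, with 15 reads in all. A gene near 0 in one group could thus pass through the other group alone. Libraries were scaled by a trimmed mean of log ratios (30% of ratios and 5% of levels trimmed), and log2(scaled FPKM + 0.5) was fitted in limma 3.58.1 (R 4.3.3) with an intensity trend, without a replicate term. P-values were adjusted by Benjamini-Hochberg over all tested genes. Data were also simulated for 6 libraries, with 66 or 67 genes changed per size and a single spread value taken from the naive replicates. There 66.7%, 92.5% and 100% of genes changed by 0.5, 1 and 2 on the log2 scale were called, and 11 of 12254 unchanged genes. In the real data most genes were called and the 12 h libraries differed more, so these shares may not hold for them. Alternatives were other scalings, pseudocounts of 0.1 and 1, no filter, more libraries in the fit, a replicate block, limma-voom on the recovered reads, and each library left out in turn.

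The comparison, the gene lists, the markers and the motifs were chosen with earlier results of these data known. The genes named by rule were the 15 called genes with the largest and the 15 with the smallest log2 fold change (no overlap of groups, mean of at least 10 scaled FPKM in the higher group), 21 genes that the study names for these stages, up to 4 members of each list in each direction with its most abundant member, and the 10 most abundant genes of each group. Another 54 genes, mostly well-known list members, and the marker and near-background genes were singled out after their values were seen. Positions and gene types come from GENCODE M21, and promoter sequences from RefSeq (GRCm38.p6), which matched 9475 of the tested genes. Some results are not reported here.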

Additional observations from a re-analysis of the deposited data

How the results depend on the processing

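The counts of genes called higher (5000) and lower (4873) kept within 1.5 times under every alternative run, and no called gene was called in the opposite direction by any of them. Leaving out each library in turn gave 4762 to 4970 higher, 4551 to 4915 lower, 2328 to 2433 at least 2-fold higher, 2508 to 2633 at least 2-fold lower, and 1030 to 1078 called list members (1060 with all 6 libraries). limma-voom on the recovered reads called 4967 higher and 4887 lower, and no filter 5253 and 5355. The scaling mattered most for small changes. Without scaling the counts were 4170 and 5746 and the median of all tested genes -0.19, with the upper quartile 4163 and 5755, and with the median of ratios 4868 and 5004.

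Whether same-numbered naive and 12 h libraries were paired is not stated in the sources used here. Their deviations from the group means correlated at -0.01, -0.12 and -0.03. Differently numbered libraries correlated at -0.05 to 0.08. With 3 libraries per group, such weak values cannot decide the question. With the replicate block 4912 genes were called higher and 4743 lower.

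Values that changed sign were all small. Without scaling and with the upper quartile, in that order, the medians of negative feedback genes were -0.036 and -0.037, of cytotoxic granule genes -0.103 and -0.104 and of microRNA processing genes -0.178 and -0.180, and the log2 fold changes of Ddx5 were -0.18 and -0.18 and of Dicer1 -0.21 and -0.21. The median of costimulatory genes ranged from -0.0028 (without naive replicate 3) to 0.352 (without activated replicate 3) when libraries were left out, and that of the BCL2 family from -0.132 (without activated replicate 1) to 0.020 (without activated replicate 2). Cytosolic ribosomal proteins went from 57 higher and 5 lower to 40 and 16 without scaling. The cause was not tested beyond the shift of the scale itself. Over the values of the 326 named genes under the alternatives other than leaving out a library, 3197 kept direction and side of the threshold, 41 lost the call and 18 gained it. Depth limits genes near 1 FPKM, where a library holds few reads.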
